A study of Homo sapiens with 3 samples.

Results

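The comparison set the sgRNA counts of K562 cells sorted for high HLA-B against those of the high-screen control pool. K562, an established human leukaemia line, displays little surface MHC class I (MHC-I). The cells expressed the nuclease Cas9 and carried a pooled genome-wide knockout library, the Bassik Human CRISPR KO Library, delivered by lentivirus at an infection multiplicity near 0.3. Puromycin (1 μg/mL) was applied to both groups 48 h after infection and kept on for 72 h. The high screen received 1 ng/mL interferon-gamma (IFN-γ) 24 h ahead of sorting and was sorted at days 18 and 25 with an antibody specific for HLA-B. Each group held 1 library of genomic DNA, so no value here can be set against a spread between replicates. The day on which the control pool was harvested is not stated in the labels. The unsorted pool of a parallel low screen served as a second control where stated. That screen was given 25 ng/mL IFN-γ and sorted at days 7 and 15, after the same puromycin selection. Labels of this pool differ on the antibody of that screen. A gene entered when at least 1 of its sgRNAs had 10 or more reads in the control, which 20314 of the 20381 genes seen in the series did. Their 174244 measured sgRNAs were set beside 6257 safe-targeting sgRNAs, which cut the genome at sites without annotated function, and 4325 non-targeting sgRNAs, for which the genome holds no target.

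MHC-I molecules carry peptides to the cell surface for inspection by CD8+ T cells, and HLA-B is a heavy chain of these molecules. Their genes respond to IFN-γ through its receptor and the kinases JAK1 and JAK2, and SOCS1 restrains that signal. Polycomb repressive complex 2 (PRC2) places the repressive mark H3K27me3 on silent promoters, PRC1 complexes ubiquitinate histone H2A, and Menin joins the KMT2A and KMT2B methyltransferases to chromatin. An sgRNA that raises HLA-B when it cuts should gain reads in the sort, and an sgRNA that lowers it should lose them.

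The counted sgRNAs are named in the files by target gene only. The study's follow-up sgRNAs show what such a reagent reads in the genome, and they are printed here for 6 genes that passed adjustment below; whether they were among the counted sgRNAs is not known. Lower case gives the protospacer 5′ to 3′ on the strand stated and capitals mark the adjacent PAM that Cas9 needs. Coordinates are GRCh37 and cover the protospacer without the PAM. All 12 printed sgRNAs lay within coding sequence of their target in the GENCODE annotation. The study also lists an sgRNA 3 for EED, PCGF1, MEN1 and PSIP1, which is not printed. That of PSIP1 lay across a coding exon boundary.
MTF2 sgRNA 1 (chr1:93580316-93580332, plus strand): gttatatgtgacaagtgTGG
MTF2 sgRNA 2 (chr1:93581147-93581163, plus strand): tgttactgctattgtggAGG
BAHD1 sgRNA 1 (chr15:40750697-40750713, plus strand): ctgagttcgggcctcacTGG
BAHD1 sgRNA 2 (chr15:40750790-40750808, minus strand): tgaggtgacctgggctctcGGG
EED sgRNA 1 (chr11:85967463-85967479, minus strand): gctcgtattgctatcatAGG
EED sgRNA 2 (chr11:85967486-85967505, minus strand): gatccagctacagccagcagAGG
PCGF1 sgRNA 1 (chr2:74734216-74734231, minus strand): tttgctgcctatgcgcCGG
PCGF1 sgRNA 2 (chr2:74733162-74733179, plus strand): gccgaggttgctcagtgcTGG
MEN1 sgRNA 1 (chr11:64577173-64577189, minus strand): ctcctacttcaaggatcGGG
MEN1 sgRNA 2 (chr11:64577336-64577352, plus strand): gtcggccacgggaaagtAGG
PSIP1 sgRNA 1 (chr9:15490048-15490066, minus strand): gcaaaccaaataaaagaaaAGG
PSIP1 sgRNA 2 (chr9:15490088-15490106, plus strand): agtaaggaaatatatccttTGG

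Reads in the sort were concentrated in few sgRNAs. The sorted library held 34266318 matched reads over 99537 sgRNAs and the control held 22562241 over 196079. The 1000 most abundant sgRNAs took 17.8% of the matched reads in the sort and 3.21% in the control. Whether a safe-targeting sgRNA had any read in the sort depended on its control count: 30.2% did at 10 to 24 control reads and 89.9% at 400 or more. An sgRNA without a sorted read was counted as 0, so its log2 ratio was set by its control count and ran from -4.96 to -3.76 at 10 to 24 control reads and from -7.98 to -6.99 at 100 to 199.

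The log2 ratio of an sgRNA is its count in the sort over its count in the control, after scaling both to matched reads and adding 1. Safe-targeting sgRNAs had a median log2 ratio of -4.49, and 11.7% of them (exact Clopper-Pearson 95% interval 10.9 to 12.6%) lay above 1. Gene-targeting sgRNAs as a whole were close to them, with a median of -4.64 and 12.6% above 1 (12.4 to 12.7%). Non-targeting sgRNAs stood higher, at a median of -2.20 and 15.8% above 1 (14.7 to 16.9%). They also had more control reads, with a median of 165 against 93 for safe-targeting sgRNAs. At 100 to 199 control reads the shares above 1 were 16.1% (14.2 to 18.2%) and 11.1% (9.77 to 12.5%). These intervals cover counting error over sgRNAs within 1 pair of libraries, and the reads carry no molecular identifiers. Safe-targeting sgRNAs, which cut as gene-targeting ones do, are the background used below.

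**Figure D1:**
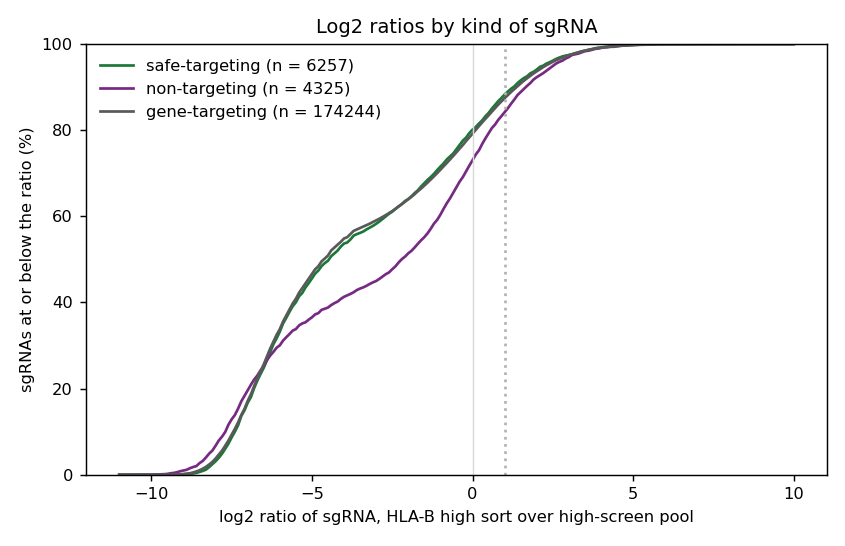
Cumulative share of sgRNAs (vertical axis, %) at or below each log2 ratio of the HLA-B high sort over the high-screen pool (horizontal axis) for 6257 safe-targeting, 4325 non-targeting and 174244 gene-targeting sgRNAs. The gene-targeting curve lies close to the safe-targeting one, and 11.7% of safe-targeting sgRNAs lie to the right of the dotted line at 1.

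Redundant siRNA activity (RSA) gave each gene a score that asks whether the sgRNAs of a gene lie together at one end of the ranking of all sgRNAs. The best rank of a gene is the one with the smallest RSA p, and a call needed a one-sided p under 0.001 and 4 or more of its sgRNAs up to that rank. The exact adjusted p sets the RSA score against its exact null and applies Benjamini-Hochberg adjustment over all 20314 genes. With 1 library a side, each p describes how well a gene's sgRNAs agree in these libraries and not a difference between replicated conditions. By this rule 108 genes were called enriched in the sort (0.532% of those tested) and 11 passed adjustment (0.0541%). For 59 of the 108 (0.29% of those tested) every sgRNA at the best rank had gained reads, that is, had a log2 ratio above 0. For the other 49 the best rank reached sgRNAs with a log2 ratio below 0, from -4.49 to -0.01 with a median of -1.70, where the median gene-targeting sgRNA stood at -4.64. At an unadjusted exact p below 0.05 there were 1065 genes, against 1016 expected by chance.

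Few genes were enriched across most of their sgRNAs. Of 7463 genes with 10 measured sgRNAs, 1922 had none above a log2 ratio of 1, 50 had 5 or more and 14 had 6 or more. Only SOCS1 and PCGF1 among them had 9, and no gene had all 10. Among genes with 7 or more measured sgRNAs, 333 rose over 4-fold in summed CPM, the reads of a gene scaled to 1000000 matched reads of its library, and in 302 of these 1 sgRNA held more than 50% of the sorted reads. The same held for 12403 of all 18285 genes with as many sgRNAs.

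The 11 genes that passed adjustment differed in how many sgRNAs carried the signal. EZH2, MEN1, SOCS1 and PCGF1 had 7 of 9, 7 of 8, 9 of 10 and 9 of 10 sgRNAs above 1, and they were the 4 that still passed when the highest sgRNA of every gene was left out. SOCS1, the feedback inhibitor of IFN-γ signalling, was the most even of them. Its control reads ran from 39 to 326, its sorted reads reached 9874, and 6 of its sgRNAs lay between 3.02 and 3.63. PCGF1, the subunit that defines PRC1.1, had no sgRNA below 0, and the lowest went from 122 to 290 reads. MTF2, an accessory subunit of PRC2, was the least even. Its 10 sgRNAs split into 5 above 3 and 5 below -1, and a single sgRNA went from 211 to 312796 reads. Without that sgRNA the summed fold of MTF2 fell from 242.6 to 23.7. SUZ12, a core subunit of PRC2, had only 6 measured sgRNAs and all 6 rose above 1, the weakest from 31 to 107 reads. BAHD1, a protein that binds H3K27me3, had 4 sgRNAs between 4.51 and 6.61 and 3 more above 1, while its other 3 lay at -1.81 or below. CHMP5, a subunit of the ESCRT-III membrane-remodelling complex, likewise had 4 sgRNAs above 4 and 4 between 0.78 and -5.85. PSIP1, which encodes LEDGF, had 6 of 8 above 1, and EED, another core subunit of PRC2, had 6 of 9.

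SLC34A3, a sodium-phosphate cotransporter of the kidney, was the mildest gene that passed. Its summed CPM went from 66.3 to 302.6, a fold of 4.56 where the next smallest, that of EED, was 11.8. All 10 of its sgRNAs had reads in the sort and 7 of them lay between 1.84 and 3.57. The remaining 3 were at -1.12, -2.28 and -2.71. When the highest sgRNA of each gene was left out, BAHD1 and CHMP5 no longer had 4 sgRNAs at their best rank and so lost their calls, while their RSA p values were 9.33e-06 and 1.19e-05. MTF2, PSIP1 and SUZ12 passed adjustment without a call, because 3 or fewer sgRNAs stood at their best rank.

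**Figure D2:**
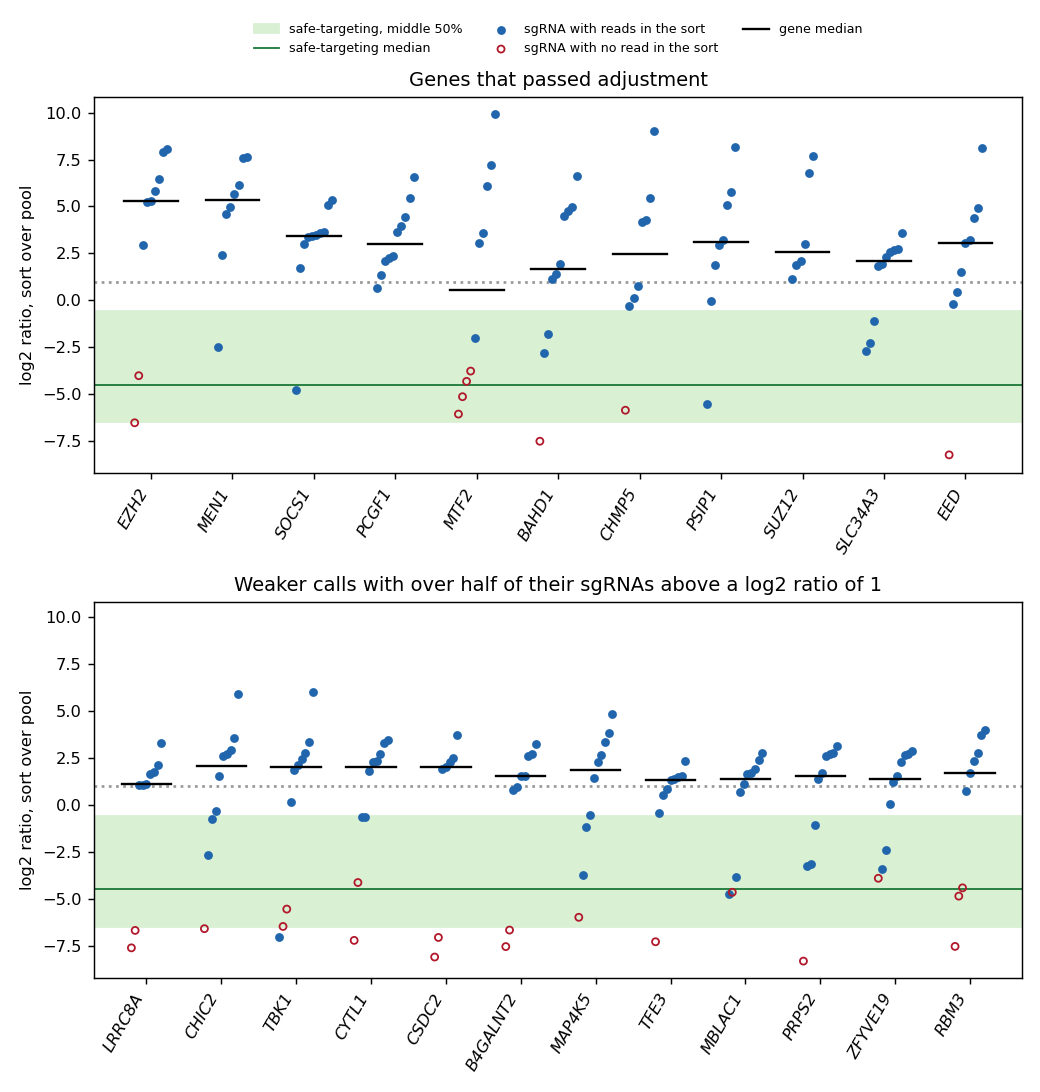
Log2 ratio of every measured sgRNA (points) for the 11 genes that passed adjustment (top) and for 12 of the 14 weaker called genes with more than 50% of their sgRNAs above 1 (bottom), with the gene median as a black bar and open circles for sgRNAs without a read in the sort. The green band spans the middle 50% of safe-targeting sgRNAs and the dotted line is at 1; most weaker genes combine a cluster of sgRNAs between 1 and 4 with 1 to 3 sgRNAs without a read.

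The weaker calls were the 32 genes called at ranks 9 to 40, none of which passed adjustment. Their summed folds ran from 0.665 to 15.8 with a median of 2.88, where the median over all genes tested was 0.664. In 14 of the 32 more than 50% of the measured sgRNAs lay above 1, and in 19 every sgRNA at the best rank had gained reads. They are described by the gene lists they belong to; the lists were chosen with earlier results of these data known, so that a called member is no independent sign for its list. The counts of called members stand beside the 0.532% called over all genes, and with lists chosen in this way nothing is read from the excess.

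LRRC8A was the first gene below those that passed (RSA p = 1.10e-05, exact adjusted p = 0.15). It encodes the obligatory subunit of the volume-regulated anion channel and lies on chromosome 9 at 131644412 to 131680318 (GRCh37). Its 9 sgRNAs went from 352 to 5260, 104 to 693, 139 to 734, 305 to 1488, 78 to 260, 226 to 732, 249 to 795, 80 to 0 and 153 to 0 reads. The 7 that kept reads all had a log2 ratio above 1, from 1.07 to 3.30, and the other 2 vanished. Without the sgRNA with the most reads its summed fold fell from 3.89 to 2.32. Its partner subunits were not called. LRRC8E had 2 of 10 sgRNAs above 1 and LRRC8D 3 of 10, LRRC8B had 2 of 8 and LRRC8C 0 of 5, with medians from -5.75 for LRRC8D to -2.48 for LRRC8C. Over the 5 members 33.3% of sgRNAs lay above 1 (19.6 to 49.5%), and 1 of 5 was called.

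Among 33 ESCRT genes, which shape membranes and sort surface proteins to the lysosome, CHMP5 and PTPN23 were called (6.06%). PTPN23, an ESCRT-associated phosphatase-like scaffold, was low in the control, where its 8 sgRNAs had 10 to 87 reads. Of these 5 rose above 1 (38 to 492, 10 to 107, 28 to 268, 23 to 170 and 20 to 77 reads) and 3 fell, and its exact adjusted p was 0.817. The other 31 members were not called, and the median over the list of the members' median log2 ratios was -4.50, beside -4.54 over all genes tested. CHIC2 and ZFYVE19 belonged to no list. CHIC2, a palmitoylated protein of vesicles and plasma membrane (chromosome 4, 54875956 to 54930772), had 6 of 10 sgRNAs above 1 and a median of 2.08 (exact adjusted p = 0.2). Of its sorted reads 71.0% came from 1 sgRNA that went from 120 to 11123, and the next 5 lay between 1.53 and 3.59. ZFYVE19, an inhibitor of abscission at the end of cell division, had 6 of 10 above 1, the highest at 2.87.

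TFE3, a MiT family transcription factor that drives lysosomal genes (chromosome X, 48886237 to 48900936), had 7 of 9 sgRNAs with a gain. Its sgRNAs went from 132 to 1036, 140 to 625, 99 to 421, 158 to 643, 140 to 537, 162 to 445, 51 to 114, 209 to 237 and 122 to 0 reads. The gains were small and alike, between 0.55 and 2.36, and no sgRNA held more than 25.5% of its sorted reads. The paralogues did not share this: TFEB had 0 of 9 and MITF 0 of 10 sgRNAs above 1, with medians of -6.35 and -3.22. TFE3 was the 1 called member of the 24 MiT factors and their regulators.

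TBK1, a kinase of innate immune signalling (chromosome 12, 64845870 to 64895894), had 6 of 10 sgRNAs above 1 and a median of 2.02 (RSA p = 1.84e-05, exact adjusted p = 0.23). A single sgRNA went from 238 to 23685 reads and held 81.5% of the total, and without it the summed fold fell from 15.8 to 3.65. The next 5 still lay between 1.88 and 3.35. IKBKE, its closest relative, had 3 of 10 above 1 and a median of 0.40 without a call. TRAF2, an adaptor of TNF receptor signalling, was called with only 3 of 10 above 1 and a median of 0.24. The adaptors of TBK1 stood low, with 0 sgRNAs above 1 for TANK, AZI2 and TBKBP1. Over the 26 measured genes of the TBK1 and NF-κB list 16.2% of sgRNAs lay above 1 (11.8 to 21.5%). MAP4K5, a kinase upstream of JNK and Hippo signalling, had 6 of 10 above 1 and a median of 1.89. Its reads went from 43 to 1893, 83 to 1831, 379 to 5975, 51 to 505, 163 to 1244 and 74 to 310 for these 6. In the same list of 18 MAP4K and Hippo kinases MAP4K1 and SAV1 were called depleted, although MAP4K1 had 3 of 10 sgRNAs above 1 (2.69, 1.49 and 1.27) and SAV1 1 of 7, at 2.61.

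The TIP60/NuA4 complex acetylates histones H4 and H2A, and of its 18 listed subunits MRGBP and EPC2 were called (11.1%). MRGBP had 5 of 10 sgRNAs above 1, at 30 to 2193, 95 to 2137, 92 to 1006, 114 to 1017 and 50 to 445 reads, and no reads for 3 others. EPC2 had 4 of 10 above 1 and 3 more that gained less. The enzyme itself, KAT5, had 0 of 9 above 1 and a median of -5.65, and 16 members were not called. NDUFA9 was called among 41 subunits of respiratory complex I (2.44%), and each of its 9 sgRNAs had sorted reads, with log2 ratios from -1.96 to 3.09. NDUFA1, NDUFA12 and NDUFB3 also had medians above 0 (0.51, 0.39 and 0.21), and NDUFS6 was called depleted. Over the whole of complex I 18.7% of sgRNAs lay above 1 (14.5 to 23.5%), beside 11.7% of safe-targeting sgRNAs.

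The list of 29 glycosphingolipid and surface glycan enzymes gave 2 calls (6.90%). B4GALNT2, which makes the Sda carbohydrate antigen, had 7 of 9 sgRNAs with a gain, from 0.83 to 3.27, and 2 without a read. GALNT10, which starts O-linked glycan chains, had 8 of 10 with a gain, but these reached only 0.29 to 2.56, and its summed fold was 1.74. Among 16 nuclear RNA-binding proteins MATR3 was called (6.25%), with 5 of 10 above 1, of which 1 sgRNA held 73.3% of the sorted reads. RBM3 and CSDC2 belonged to no list. RBM3, a cold-inducible RNA-binding protein, was called with 5 of 9 above 1 (1.73 to 3.99) and 3 without a read, and CSDC2, a cold-shock domain protein, was called with 5 of 7 above 1 (1.90 to 3.73) and 2 without a read.

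Other weaker genes with more than 50% of their sgRNAs above 1 included CYTL1, MBLAC1 and PRPS2. CYTL1, a secreted cytokine-like protein, went from 56.8 to 247.9 CPM with 6 of 10 sgRNAs between 1.80 and 3.44. PRPS2, an enzyme of nucleotide synthesis, had 6 of 10 between 1.40 and 3.14 and 4 at -1.08 or lower. MBLAC1, a metallo-beta-lactamase domain protein, had 6 of 10 between 1.11 and 2.76. Among the 32 weaker genes, 4 lost their calls, MATR3, AARD and RBM3 among them, when the highest sgRNA of each gene was left out.

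For 13 of the 32 weaker genes the best rank extended to sgRNAs with a log2 ratio below 0. HSD11B2, a cortisol-inactivating enzyme, and KLC3, a kinesin light chain, were lower in summed CPM, with folds of 0.816 and 0.665. Of their 10 sgRNAs 8 lay below a log2 ratio of 0 in both genes. The best rank took in all 10, since each had reads in the sort. HSD11B2 had 1653 control reads and KLC3 2348, against a median of 1012 over all genes tested. KLC3 had only 1 sgRNA above 1, at 1.24. FASN, the fatty acid synthase, had 1 of 9 above 1 and a summed fold of 1.23. Of the weaker genes 11 had reads for each of their sgRNAs, while 84 of the 18285 genes with 7 or more measured sgRNAs did. LYPD4 gained in 7 of 8 sgRNAs but only 1 lay above 1, from 102 to 2294 reads, and without it the summed fold fell from 2.55 to 0.822.

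**Figure D3:**
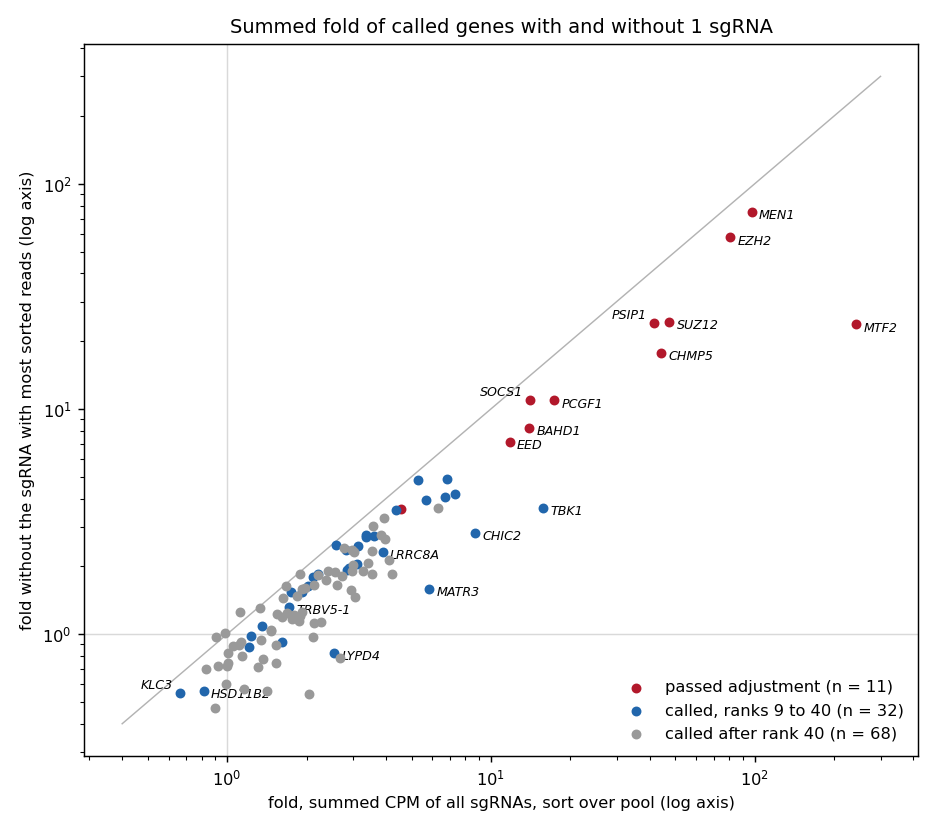
Summed fold of each called or passing gene (horizontal log axis, CPM in the sort over CPM in the control over all measured sgRNAs) against the same fold without the sgRNA that had the most sorted reads (vertical log axis). The 11 genes that passed adjustment are red, the 32 weaker calls blue and the 68 later calls grey; the line marks equal folds, MTF2 and TBK1 lie farthest below it among the named genes above 10-fold, and KLC3 and HSD11B2 lie below 1 on both axes.

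Further down the ranking the folds were smaller. The 68 genes called after rank 40 had a median summed fold of 1.89 (0.829 to 6.31), and 61 of them were above 1. In 9 of the 68 more than 50% of the sgRNAs lay above 1, and in 32 every sgRNA at the best rank had gained reads. Among uncalled genes with 7 or more measured sgRNAs, leaving out those that passed adjustment, the 10 with the highest share above 1 were MTAP, C9orf114, DCN, CLOCK, OTOA, AC005841.1, DPY19L3, ZNF781, PURB and USP44. CLOCK, the circadian transcription factor, had 5 of 9 sgRNAs above 1 (24 to 389, 243 to 3385, 72 to 441, 73 to 437 and 34 to 118 reads) and no reads for the other 4. DCN, the proteoglycan decorin, also had 5 of 9 above 1. MTAP, an enzyme of methionine salvage, had 4 of 7, and 85.9% of its sorted reads came from 1 sgRNA. Their RSA p ran from 0.00158 to 0.00368. Olfactory receptor genes, a family that serves smell, gave 2 calls in 389 genes (OR10AC1P and OR2T10), or 0.514%, close to the 0.532% over all genes. Their sgRNAs lay above 1 in 11.9% of cases (10.7 to 13.0%).

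The sorted antigen gave a check on the label. Of the 8 measured sgRNAs against HLA-B, 7 had no read in the sort, although they had 49, 59, 64, 98, 114, 197 and 310 reads in the control. The eighth went from 130 to 296 reads, a log2 ratio of 0.58, and none lay above 1. HLA-B was not called depleted (RSA p = 0.00328, exact adjusted p = 0.844). HLA-C, a related heavy chain, was similar with 6 of 8 sgRNAs absent. Whether these sgRNAs also match related heavy-chain genes was not tested. B2M, the light chain shared by these molecules, had 0 of 10 sgRNAs above 1, and its median of -5.18 lay near that of the safe-targeting sgRNAs. TAP1, a peptide transporter subunit, had 1 of 10 above 1.

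Genes that carry the IFN-γ signal divided. IFNGR1, the ligand-binding receptor chain, had 5 of 8 sgRNAs without a read and 3 of those had 222 to 261 reads in the control. JAK2 had 7 of 9 without a read and IRF1, the transcription factor induced by IFN-γ, 6 of 9. Their median log2 ratios were -6.30, -6.44 and -7.22. JAK1 stood apart with a median of 1.06, since 5 of its sgRNAs lay above 1 (118 to 1518, 98 to 1242, 273 to 1284, 286 to 1005 and 49 to 156 reads) and its other 4, at 68 to 317 control reads, had none. The second receptor chain, IFNGR2, had a median of -4.68 with 1 sgRNA above 1. RFX5 and RFXANK, subunits of the factor that binds MHC promoters, had no sgRNA above 1. Summed over 9 sgRNAs each, RFX5 went from 61.9 CPM in the control to 0.117 in the sort and RFXANK from 62.7 to 14.0. None of these signalling and promoter-binding genes was called in either direction, and their exact adjusted p was 0.815 or higher. Another subunit of the same factor, RFXAP, had 1 sgRNA above 1, at 1.19. The list of 9 MHC enhanceosome genes, which act at MHC promoters, had 7 of 79 sgRNAs above 1 (8.86%, 3.64 to 17.4%). Reads in the sort were found for 41.8% of its sgRNAs (30.8 to 53.4%). Safe-targeting sgRNAs gave 11.7% and 52.4%, within both intervals. Among the 13 negative regulators SOCS1 alone was called. SOCS3 had 1 of 10 sgRNAs above 1, PTPN2 1 of 10 and CISH 3 of 10.

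**Figure D4:**
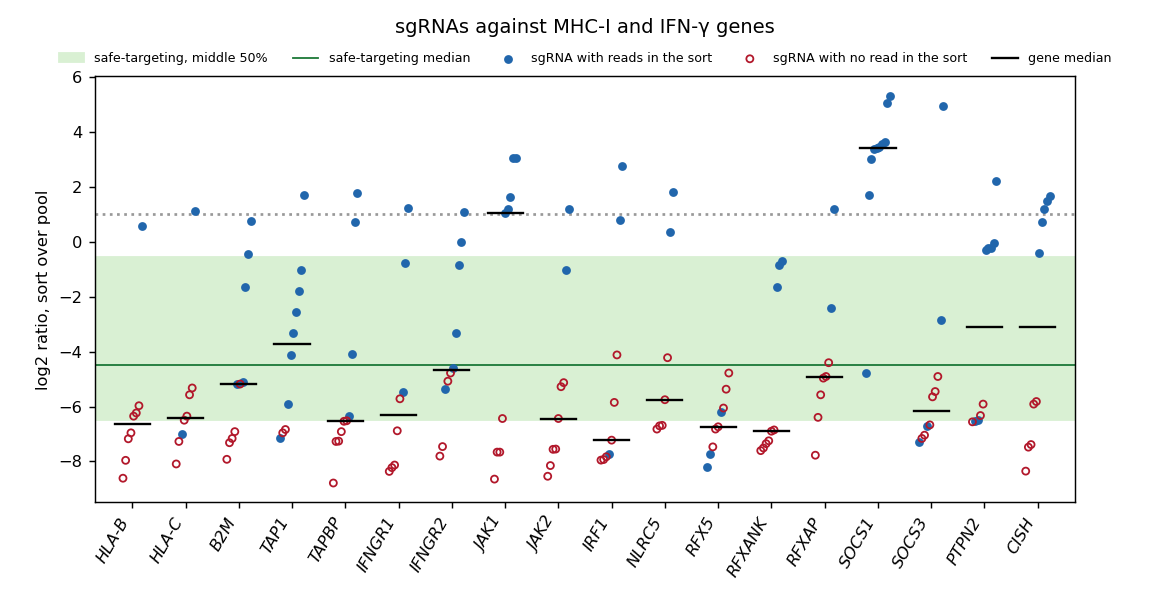
Log2 ratio of every measured sgRNA against 18 genes of MHC-I presentation and IFN-γ signalling, drawn as in the plot of sgRNA ratios for the enriched genes. HLA-B has 7 of 8 sgRNAs without a read, JAK1 is split between sgRNAs above 1 and sgRNAs without a read, and SOCS1 has 9 of 10 above 1.

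At the low end 85 genes were called depleted (0.418% of those tested) and 1, METTL21C, passed adjustment (0.00492%). Absence from the sort was common, and 52.4% of safe-targeting sgRNAs had a read there. Absent sgRNAs were ranked at this end by their control reads alone. The RSA p and the exact adjusted p of depletion therefore also depend on control reads, which the null of uniform ranks leaves out. The called genes had more control reads than most, with a median of 1310 per gene against 1012 over all genes tested, and 28 of the 85 had an sgRNA above 1. METTL21C itself had 2 such sgRNAs, from 33 to 419 and from 117 to 452 reads. Its absent sgRNAs had 24, 40, 246, 334, 347, 536 and 679 control reads, where the median gene-targeting sgRNA had 94. PQLC1 had 10 of 10 sgRNAs below -1 and went from 70.2 to 0.263 CPM (exact adjusted p = 0.0767). SLC14A1, the urea transporter of red cells, kept reads for 1 of 10 sgRNAs.

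In 82 of the 18285 genes with 7 or more measured sgRNAs no sgRNA had a read in the sort. Those with the most control reads included PRRC2C, VSIG1, NPY4R, MRPL46, ZNF337, TRAV40, TERF2, IGSF1 and SPDL1. PRRC2C, an RNA-binding protein, went from 1260 reads over 10 sgRNAs to 0, which is at least 638-fold lower in CPM when 3 reads over the gene are taken as the floor. TERF2, which protects telomeres, went from 833 reads over 9 sgRNAs to 0, at least 422-fold lower. Both bounds are set by the control reads alone, since the genes were picked for having no sorted read. They allow for read counting and not for sgRNAs lost at the sort, as many safe-targeting sgRNAs were. Of the genes listed here, PRRC2C, VSIG1 and IGSF1 were called depleted, and TERF2 was not. PRRC2C was also called with the low-screen pool as the control, and VSIG1 and IGSF1 were not.

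Genes of machinery that cells need for growth were often absent from the sort. Of the sgRNAs against 30 measured proteasome genes 24.7% had a sorted read (19.4 to 30.6%) and 4.53% lay above 1 (2.28 to 7.96%). For 40 genes of the large ribosomal subunit the shares were 28.0% (22.8 to 33.6%) and 6.09% (3.59 to 9.58%), and for 30 core spliceosome genes 30.5% (24.6 to 36.8%) and 9.01% (5.67 to 13.4%). The 30 genes of the small ribosomal subunit had reads in 35.7% (29.2 to 42.7%) and lay above 1 in 12.1%. Safe-targeting sgRNAs had reads in 52.4% (51.2 to 53.7%). The 4 lists had fewer control reads, with medians of 49, 61, 60 and 60 per sgRNA against 93. Safe-targeting sgRNAs with 25 to 49 control reads had sorted reads in 37.4% of cases (34.3 to 40.5%) and those with 50 to 99 in 47.0%. The share of the proteasome list was below the first of these and that of the other 3 lists below the second. These ranges match the lists by their medians only, and each list also holds sgRNAs with fewer control reads. Safe-targeting sgRNAs with 10 or more but below 25 control reads had sorted reads in 30.2% of cases (26.5 to 34.0%). Whether the lower control reads account for the shares of the lists was therefore not tested. Of the 130 genes in these lists 2 were called depleted (1.54%, beside 0.418% of all genes tested): PSMA3, a proteasome subunit, went from 498 reads to 0 and RPL27, a ribosomal protein, from 632 to 0. The other 128 were not called in either direction. The tumour suppressor RB1 was called depleted as well, at 59.4 CPM in the control and 0.146 in the sort.

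Across the 45 functional lists, 21 of 787 measured genes were called enriched (2.67%) and 8 depleted (1.02%), beside 0.532% and 0.418% of all genes tested. Of the 21, 8 were genes that passed adjustment, and the 13 others were spread over 10 lists with 1 or 2 each. The largest share of sgRNAs above 1 was that of the PRC2 core, at 39.6% (25.8 to 54.7%), followed by the LRRC8 channels and the Menin and KMT2A/B list at 33.3% each and by BAHD1 and its partners at 25.7% (16.2 to 37.2%). These shares came from few members. All 19 sgRNAs above 1 in the PRC2 core were those of EZH2, EED and SUZ12, and EZH1, RBBP4 and RBBP7 had none. MEN1 and PSIP1 held 13 of 15 in the Menin list and LRRC8A 7 of 14 among the LRRC8 channels. For BAHD1 and its partners 7 of 19 were those of BAHD1, and no partner was called. Other chromatin lists gave 13.0% for SAGA and ATAC, 13.7% for corepressors, 11.4% for Mediator, 8.61% for BAF and PBAF and 4.76% for COMPASS (0.582 to 16.2%), and these 5 lists had no called member. Of the 108 called genes 87 belonged to no list.

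Values against the low-screen pool share the sorted library with the main comparison and are no replicate of it. Of the weaker genes LRRC8A had 6 of its sgRNAs above 1 against this pool, and CYTL1 also 6, and both were called. Their RSA p values were 0.000237 and 1.86e-05. CHIC2 had 6 above 1 and an RSA p of 2.34e-05 but fewer than 4 sgRNAs at its best rank. TBK1 had 4 above 1, MRGBP 5 and MAP4K5 4, with RSA p values of 0.000487, 0.00198 and 0.00388, and none of them was called against it.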

How the data were processed

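Genomic DNA of the sorted cells and of the control pools was sequenced over the integrated sgRNAs. The authors deposited raw read counts per sgRNA for each library, made from reads that the submitters' processing notes link to bcl2fastq, cutadapt and Bowtie2; versions are not given in the sources used here. Each file ends with a line of unmatched reads (21.9% in the sort and 20.6% in the control), which was left out. Total matched reads were 34266318 and 22562241.

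sgRNAs with 10 or more control reads were kept, those absent from the sorted library were counted as 0, counts were scaled to matched reads, and 1 was added before the log2 ratio was taken. RSA and its exact null came from code tested on simulated data (Python 3.11.15; scipy 1.17.1, pandas 2.3.3, numpy 2.4.6). The count models for replicated libraries were not used, because each group held 1 library. Intervals are exact (Clopper-Pearson) at 95% and cover counting error only.

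Named genes were those that passed adjustment, the called genes to rank 40, the 10 genes with the highest share of sgRNAs above 1 among genes with 7 or more that were neither called nor passed adjustment, the 10 depleted genes with the smallest RSA p, the 10 genes with the most control reads and no sorted read, and called or extreme members of the lists; AARD was named by its call only. The genes of MHC-I presentation and IFN-γ signalling were named as members of lists, and some were chosen after their values were seen. The comparison, the gene lists and the tests were chosen with earlier results of these data known. Alternatives changed the read minimum, pseudocount, scaling, unlisted sgRNAs, control pool, sgRNAs without a target gene, call rule and the most extreme sgRNA. Gene and sgRNA positions are GRCh37. Some genes that these rules name are not reported here.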

Additional observations from a re-analysis of the deposited data

How the results depend on the processing

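The 108 enriched calls fell to 44 when sgRNAs absent from the sort were left out and to 40 when the most extreme sgRNA of each gene was left out; the 85 depleted calls fell to 33 and 15, and rose to 144 when a call needed at least 4 sgRNAs past a log2 ratio of -1. None of the 33 was among the 85. Of the 11 genes that passed adjustment at the high end, 6 passed with a minimum of 50 reads (BAHD1, EZH2, MEN1, MTF2, PCGF1 and SOCS1), 6 with the low-screen control (CHMP5, EZH2, MEN1, MTF2, PCGF1 and SOCS1) and 4 without the most extreme sgRNA. METTL21C, the 1 depleted gene, did not pass with absent sgRNAs left out, without its most extreme sgRNA or with the low-screen control, each of which gave 0 genes. The share of safe-targeting sgRNAs above 1 moved from 11.7% to 17.9% with scaling to safe-targeting sgRNAs and to 22.4% with absent sgRNAs left out. The 22.4% counts the same 734 sgRNAs above 1, over the 3280 with a sorted read instead of all 6257. The scaling raised every sorted count, because safe-targeting sgRNAs with reads had a median log2 ratio of -0.73. Causes of the other changes were not tested.

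Further settings were chosen after seeing the data. With the most extreme sgRNA of each gene removed before ranking, 192 genes were called enriched and 163 depleted, and 20 and 3 passed adjustment. Requiring a gain of every sgRNA at the best rank left 59 enriched calls. Other counts stayed within 1.5 times, and no named gene changed direction. Of 638 values for named genes under the alternatives, 90 lost a call and 19 gained one. LRRC8A and CYTL1 were the weaker genes called under all 9 alternatives that were not added after seeing the data.

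No paired analysis was possible because each group held 1 library. For the same reason, the spread between replicate sorts is unknown, and growth before the sort, cell number at the sort and HLA-B level cannot be told apart for a gene absent from the sorted library.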
